A study of Homo sapiens with 20 samples.

Results

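The alpha-cluster globins are the genes HBZ, HBA1, HBA2 and HBQ1, which lie in 1 cluster near the tip of the short arm of chromosome 16. They were taken by symbol from the count tables and peak lists, and all 4 of 4 were found among 60616 gene identifiers in the RNA table and 20401 in the ribosome footprint table. Alpha-type globin chains pair with beta-type chains and heme to form haemoglobin. HBZ encodes the zeta chain of the early embryo, HBA1 and HBA2 encode the same alpha chain of fetal and adult life, and HBQ1 encodes theta globin, whose role is unclear. In erythroid cells these genes are driven by distal enhancers, of which the strongest lie in introns of the neighbouring gene NPRL3.

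The study deleted exon 5 of NAT10, the enzyme that writes N4-acetylcytidine (ac4C) into RNA, in K562 cells with CRISPR-Cas9, and compared these cells with their parental wild type. K562 is a line from a chronic myeloid leukaemia with erythroid and megakaryocytic potential. The sources used here do not give whether the knockout line was 1 clone. RNA-seq and Ribo-seq, which counts fragments protected by ribosomes in cycloheximide-treated cells, each had 2 knockout and 2 wild type libraries. In acetylated RNA immunoprecipitation (acRIP-seq), RNA fragments of about 100 nt were pulled down with an ac4C antibody or with IgG, and 1 merged peak list was available per antibody and genotype.

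RNA-seq libraries held 10388717 to 18778485 counts and Ribo-seq libraries 621287 to 1220308. The chi-square per degree of freedom between the 2 knockout RNA-seq libraries was 1.03, or 2.99% above counting noise, against 12.5 for the wild type pair, so the knockout pair was summed and counted as 1 sample. The RNA test therefore had 1 residual degree of freedom and assumed that the lone knockout sample varies like wild type. NAT10 itself stood at 50.1 and 50.7 CPM (counts scaled to library size) in knockout RNA and at 132 and 146 CPM in wild type (log2 fold change -1.51, SE 0.085, edgeR adjusted p = 0.000102). Of 12 erythroid marker genes 11 exceeded 1 CPM in every RNA library, and EPB42, a membrane skeleton protein of late red cells, did not. Separate cultures are not stated for the replicates, and the spread behind each p-value may therefore be technical.

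In RNA, the embryonic gene HBZ and both alpha genes rose in knockout cells, while HBQ1 did not pass the test. That is 3 of 4 members up and none down, where 14% of all 16277 tested genes were called, 5.17% up and 8.79% down. HBZ was at 246 and 248 CPM in the knockout libraries against 55.2 and 60.2 CPM in wild type. The genotypes did not overlap, and HBZ was 4.15-fold higher in knockout (log2 fold change 2.05, SE 0.074, edgeR adjusted p = 1.61e-05). Only 0.473% of tested genes had a fold change at least as high.

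HBA1 stood at 170 and 164 CPM in knockout against 70.4 and 74.6 CPM in wild type. The libraries did not overlap, and its log2 fold change was 1.16 (SE 0.070, edgeR adjusted p = 0.000138). HBA2 was at 26.7 and 23.8 CPM against 5.24 and 5.98 CPM, again without overlap (log2 fold change 2.12, SE 0.16, edgeR adjusted p = 0.000346). These genes are near-identical copies, and the sources used here do not give how reads that match both were counted, so the split between them is uncertain. Summed into 1 feature they stood at 197 and 188 CPM in knockout against 75.6 and 80.5 CPM in wild type, which needs no split. The summed feature rose 2.39-fold (log2 fold change 1.26, SE 0.071, edgeR adjusted p = 9.68e-05).

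HBQ1 was at 45.6 and 47.2 CPM in knockout against 38.3 and 34.0 CPM in wild type. Both knockout libraries lay above both wild type libraries, as they did for all 4 members and for 38.9% of tested genes. The HBQ1 log2 fold change was 0.32 (SE 0.11), with an edgeR adjusted p = 0.108. With the knockout libraries kept apart as 2 samples it was 0.31 and was called (edgeR adjusted p = 0.0149). Median log2 fold change was 1.61 over the 4 members and 0.00 over all genes tested.

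**Figure D1:**
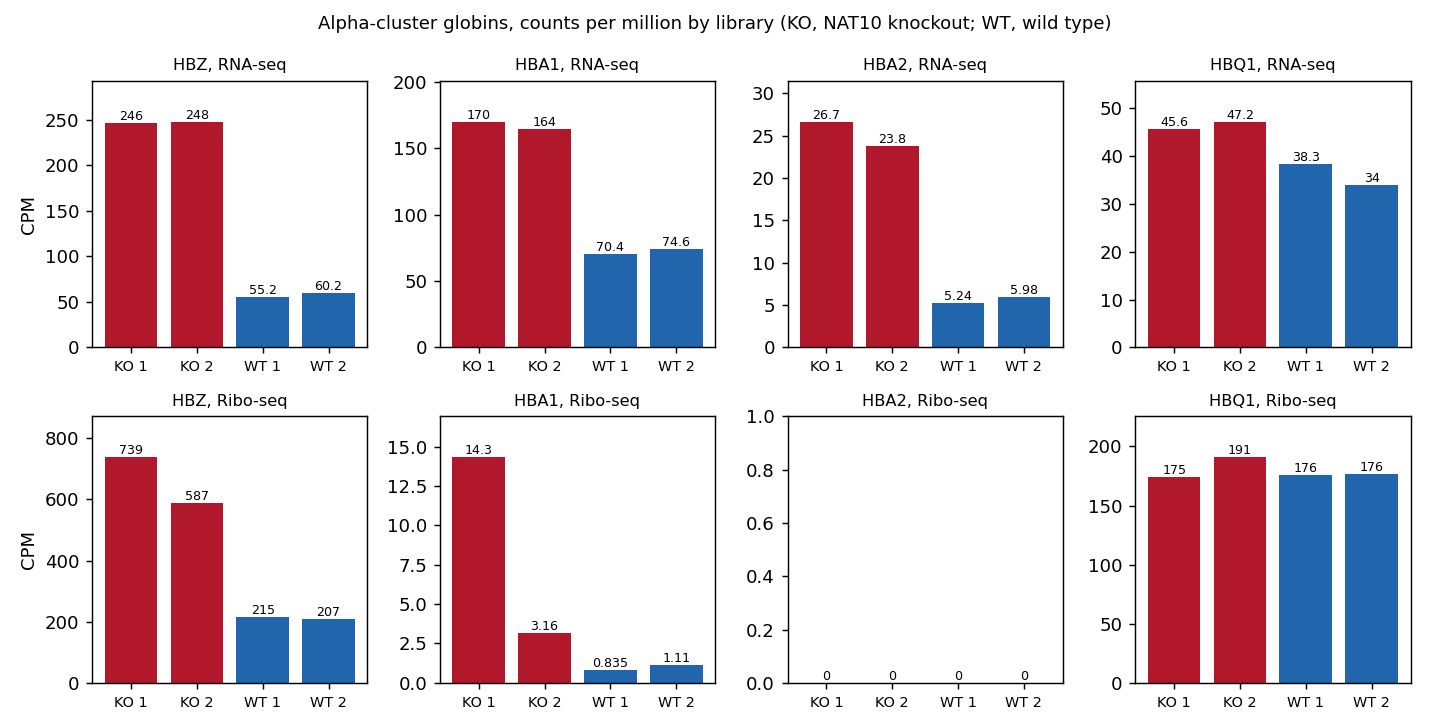
Level (CPM) of the 4 genes in each RNA-seq library (top row) and Ribo-seq library (bottom row), 1 bar per library, with each vertical axis starting at 0. HBZ is higher in both knockout (KO) libraries of both assays, HBQ1 footprints are level at 175 to 191 CPM, and HBA2 has no footprint in any library.

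Compared per kilobase of the main transcript (798 bases for HBZ, 577 for HBA1, 576 for HBA2 and 528 for HBQ1), the order of the genes was not the same in each genotype. In wild type RNA, HBA1 was highest at 122 and 129 CPM per kilobase. HBZ (69.2 and 75.4) and HBQ1 (72.6 and 64.3) overlapped, and HBA2 was lowest at 9.09 and 10.4. Among single genes in knockout RNA, HBZ led at 308 and 311 CPM per kilobase, just above HBA1 at 295 and 285. HBQ1 followed at 86.4 and 89.3 and HBA2 at 46.3 and 41.4, with no overlap between neighbours. The places of HBA1 and HBA2 in both orders rest on the uncertain split of reads between them. Added together, the per-kilobase values of HBA1 and HBA2 lie above that of HBZ in every RNA library of both genotypes. The lead of HBZ in knockout therefore holds only with the alpha genes taken singly.

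The make-up of the cluster's RNA counts also differed between the libraries. Counts here are not scaled to transcript length, and HBZ has the longest main transcript, so its share of transcripts is lower than its share of counts. HBZ took 50.4% of the 8706 counts of the 4 genes in knockout replicate 1 (95% Wilson interval 49.3 to 51.4) and 51.3% in replicate 2 (50.3 to 52.3). In wild type it took 32.6% of 1841 counts (30.5 to 34.8) and 34.5% of 2191 (32.5 to 36.5). HBQ1 took 9.34% and 9.76% in knockout against 22.7% and 19.4% in wild type. Within the alpha pair, HBA2 held 13.5% (12.5 to 14.7) and 12.7% (11.6 to 13.8) of counts in knockout against 6.93% (5.38 to 8.87) and 7.43% (5.97 to 9.21) in wild type. These intervals cover counting error only, and the HBA2 share also rests on the uncertain split of reads that match both alpha genes. With 1 summed knockout sample and 2 wild type samples, an exact two-sided permutation test of such a share gives p = 0.333, the smallest this design allows.

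**Figure D2:**
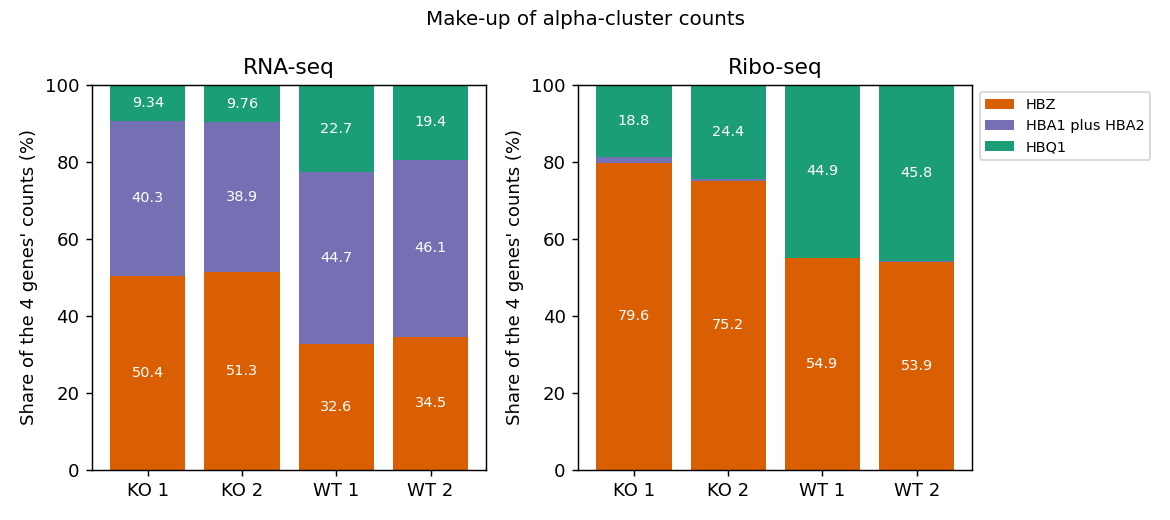
Share of the summed counts of the 4 genes held by HBZ, by HBA1 plus HBA2 and by HBQ1 in each library (vertical axis, percent from 0 to 100). Counts are not scaled to transcript length. HBZ takes 50.4% and 51.3% of RNA counts in knockout (KO) and 32.6% and 34.5% in wild type (WT), and the alpha pair nearly vanishes from the Ribo-seq counts.

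In ribosome footprints only HBZ and HBQ1 had enough counts to be tested, and HBZ rose. This is 1 of 2 tested members, where 5.34% of all 8887 tested genes were called, 1.47% up and 3.87% down. HBZ footprints were at 739 and 587 CPM in knockout against 215 and 207 CPM in wild type. The knockout libraries lay above wild type by more than the gap between them, a 3.17-fold rise (log2 fold change 1.66, SE 0.16, edgeR adjusted p = 0.000320). In 24.7% of tested genes both knockout libraries lay above both wild type libraries. HBQ1 footprints were at 175 and 191 CPM in knockout against 176 and 176 CPM in wild type, so the genotypes overlapped. The HBQ1 log2 fold change was 0.06 (SE 0.16, edgeR adjusted p = 0.879). Over all genes 475 were called, a count that became 716 without knockout replicate 2 and 264 without wild type replicate 1, while HBZ stayed called in each case.

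HBA1 and HBA2 had few or no footprint counts. HBA1 had 17 and 2 footprint counts in knockout against 1 and 1 in wild type. The ratio of summed counts, scaled to library size, was 11 (95% exact interval 2.64 to 97.1), and without knockout replicate 1, which held 17 of the 19 knockout counts, it was 3.30 (0.239 to 45.6). These intervals cover counting error only, not the spread between libraries. HBA2 had 0 counts in all 4 libraries, which allows up to 2.56 and 4.83 CPM in knockout against 2.46 and 3.29 CPM in wild type (3 counts per library). The footprint level of HBA1 was 0.0523 times its RNA level in knockout and 0.0134 times in wild type, both as mean CPM. For HBZ that ratio was 2.68 in knockout and 3.66 in wild type, and for HBQ1 3.94 and 4.88. The part of the counting of shared reads in these low values was not tested. HBZ made up 79.6% and 75.2% of the footprints of the 4 genes in knockout against 54.9% and 53.9% in wild type (exact two-sided permutation p = 0.333, the smallest that 2 against 2 libraries allow).

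Translational efficiency, the change in footprints relative to the change in RNA, was tested by the interaction term between assay and genotype. HBZ had a log2 efficiency change of -0.39 (SE 0.19, edgeR adjusted p = 0.576) and HBQ1 one of -0.28 (SE 0.18, edgeR adjusted p = 0.661), so neither passed. HBA1 and HBA2 passed the filter through their RNA counts, and HBA1 gave 2.26 (SE 0.95, edgeR adjusted p = 0.537) on the few footprints above. No efficiency is given for HBA2, which had no footprint. By edgeR 0 of 10299 genes passed (0% called), while 927 had an unadjusted p under 0.05 and DESeq2 called 24. Leaving out knockout replicate 1 gave 5 calls, and leaving out wild type replicate 1 or 2 gave 8 or 18, respectively. In simulated data the efficiency test recovered 34.3% of log2 changes of 1, so a change that did not pass may have been missed.

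The nearest genes on either side of the cluster did not pass the test in RNA, and the difference between the flanks and the cluster was not tested. In the gene order of chromosome 16 in RefSeq, NPRL3, a regulator of amino acid signalling to mTORC1 that carries the alpha-globin enhancers, lies next to HBZ. It was at 202 and 207 CPM in knockout RNA against 170 and 168 CPM in wild type (log2 fold change 0.23, SE 0.074, edgeR adjusted p = 0.0791). LUC7L, a splicing factor on the other side of HBQ1, was at 0.00 (SE 0.094, edgeR adjusted p = 0.992). Of 17 listed flanking genes 15 were tested in RNA, of which 1 rose and 3 fell (median -0.09 on the log2 scale), where 14% of all tested genes were called. The gene that rose was the nucleoside diphosphate kinase NME4 (0.27, SE 0.069), and those that fell were FAM234A (-0.55), the weakly expressed ARHGDIG (-1.99) and PGAP6 (-0.27). In footprints 0 of 13 were called by edgeR (median 0.01), where 5.34% of all tested genes were called. The plotted gene farthest from the tip of 16p, PRR35, which also fell in RNA (-1.10, SE 0.24, edgeR adjusted p = 0.0201), is outside the list and is named after its value was seen.

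**Figure D3:**
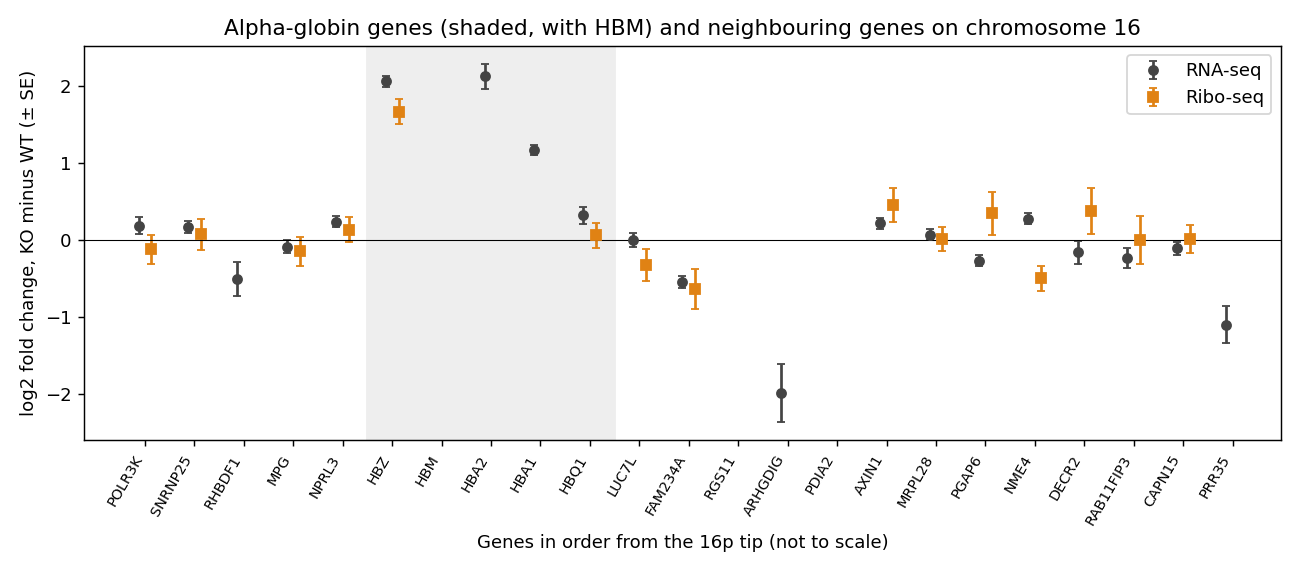
Log2 fold change, knockout minus wild type, with SE from the edgeR fit, for genes in their order from the tip of 16p (spacing not to scale), in RNA-seq (circles) and Ribo-seq (squares). HBZ, HBA2 and HBA1 in the shaded cluster stand between 1.16 and 2.12 in RNA. HBQ1, also in the cluster, stands at 0.32, close to the highest of the flanking genes, which lie between -1.99 and 0.27. Genes without a symbol were not tested.

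Other globins rose as well, where 5.17% of all tested genes rose in RNA and 1.47% in footprints. Of 9 listed, 4 were tested in RNA and 3 rose (median 0.88), and of 4 tested in footprints 3 rose (median 1.44). In RNA these were the fetal genes HBG1 (1.17, SE 0.098) and HBG2 (0.55, SE 0.084) and the minor adult gene HBD (1.83, SE 0.27). As for the alpha pair, the split of shared reads between HBG1 and HBG2 is uncertain. The embryonic beta-type gene HBE1 rose in footprints, at 5500 and 4340 CPM against 1930 and 1450 CPM (1.55, SE 0.15). Its RNA was at 0.797 to 2.60 CPM and did not pass (0.58, SE 0.52). The footprint level of HBE1 was 2100 times its RNA level in knockout and 1090 times in wild type, both as mean CPM. For HBG1 and HBG2 that ratio was 1.13 to 1.61. The part of read counting in the low HBE1 RNA values was not tested. The adult beta gene HBB had 5 RNA counts in knockout and 7 in wild type. HBM, the mu-globin gene that lies between HBZ and HBA2, had 3 RNA counts in knockout and 2 in wild type, and the pseudogene HBZP1, which resembles HBZ, had 9 and 2.

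Among 30 transcription and chromatin factors of globin genes, 29 were tested in RNA, of which 5 rose and 4 fell (median 0.02), and 0 of 28 were called in footprints by edgeR (median 0.05). The shares over all tested genes were 5.17% up and 8.79% down in RNA, and 5.34% called in footprints. SOX6, which acts in globin switching, rose by 1.62 (SE 0.17), and TAL1, a partner of GATA1 at globin enhancers, rose by 0.53. LMO2, which bridges GATA1 and TAL1, fell by 0.70 on the log2 scale, and ZFPM1, a GATA1 cofactor, by 0.60. GATA1 was at 282 and 272 CPM in knockout against 346 and 373 CPM in wild type (-0.42, SE 0.090, edgeR adjusted p = 0.0203). The erythroid factor KLF1 did not pass (-0.09, SE 0.086, edgeR adjusted p = 0.550).

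Of 17 genes of heme supply and its sensing, 16 were tested in RNA, of which 3 rose and 0 fell by edgeR (median 0.11). They were FECH, which inserts iron into protoporphyrin to make heme (0.45), the mitochondrial iron importer SLC25A37 (0.40) and its partner ABCB10 (0.32). SLC25A37 was also the 1 of 16 that rose in footprints (0.77, SE 0.20, edgeR adjusted p = 0.0498). Over all tested genes 5.17% rose and 8.79% fell in RNA, and 1.47% rose in footprints. EIF2AK1, the heme-regulated kinase that restrains globin translation, was at 0.09 in RNA (SE 0.088, edgeR adjusted p = 0.557) and -0.42 in footprints (SE 0.15, edgeR adjusted p = 0.121). Of 5 genes for the alpha chain's chaperone and for proteins that bind its mRNA, 4 were tested in RNA and PABPC4, a poly(A)-binding protein, fell (-0.36, SE 0.095, edgeR adjusted p = 0.0425). AHSP, the chaperone of free alpha chains, was not among the genes tested.

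The genes whose profile over the 8 RNA-seq and Ribo-seq libraries lay nearest to that of HBZ were IGF1, a growth factor, RYR2, a calcium release channel, MAGEB2, ANXA1 and RNF182. Nearness was the Euclidean distance between log2 CPM values centred within gene and assay, and ran from 0.342 for IGF1 to 0.710 for RNF182, against a median of 2.66 over 8433 genes. For HBA1 plus HBA2 the nearest were RWDD2B, FEZ1, HEMGN, an erythroid nuclear protein, ANXA1 and MACC1, at distances of 0.803 to 1.07. That second ranking rests in part on the 21 HBA1 footprints. These 8 libraries include the genotype contrast, so genes that changed alike rank first.

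Markers of other lineages moved beside the globins. Of 11 megakaryocyte markers 3 exceeded 1 CPM in every RNA library, and their summed level was 54.1 to 57.4 CPM in knockout against 91.9 to 96.2 CPM in wild type, with PF4, PPBP, GP9 and GP1BB at 0 in all RNA libraries. GP1BB nevertheless had footprints, at 310 and 387 CPM in knockout against 458 and 580 CPM in wild type (log2 fold change -0.57, SE 0.17, edgeR adjusted p = 0.0701). Of 13 granulocyte and monocyte markers 7 exceeded 1 CPM, with sums of 109 to 114 CPM in knockout against 215 to 223 CPM in wild type, and MPO and ELANE stayed under 1 CPM. Of 8 lymphocyte markers 3 exceeded 1 CPM, with sums of 28.9 to 31.5 CPM in knockout against 40.2 to 40.6 CPM in wild type. Among those tested in RNA, 3 of 3 megakaryocyte, 5 of 9 granulocyte and monocyte and 1 of 3 lymphocyte markers fell. Of all genes tested in RNA 8.79% fell and 5.17% rose. The erythroid list summed to about 1370 CPM in knockout and to 1280 and 1300 CPM in wild type, and 4 of its 11 tested genes rose in RNA, among them HEMGN (1.00), while GATA1 fell. The part of these shifts in the globin result was not tested, and in bulk RNA more cells of a type and more RNA per cell cannot be told apart.

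All 4 genes carried acRIP peaks in every list, with IgG as with the ac4C antibody. Among the 16277 genes tested in RNA, 53.2% had a peak with the ac4C antibody in wild type and 54.3% with IgG, and in knockout the shares were 70.7% and 68.2%. Peaks lay on 10 transcripts of the 4 genes in both wild type lists and on 11 in both knockout lists, the added one being HBZ-202. Each of the 10 ac4C regions in wild type overlapped an IgG region by at least 1 base, as did 93.3% of all 45290 ac4C regions there. In knockout each of the 11 did, against 79.6% of all 80709. No ac4C antibody peak on these transcripts lacked an overlapping IgG peak. The transcripts include isoforms of the near-identical HBA1 and HBA2, so the regions are not separate observations.

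The summits lay close together as well. On the main transcripts the ac4C and IgG summits were 2 to 25 bases apart in wild type and 1 to 13 bases apart in knockout. On HBA1-201 the summit lay at base 251 with the ac4C antibody and 257 with IgG in wild type, and at bases 133 and 130 in knockout. On HBA2-201 it lay at bases 212 and 210 in wild type and at 135 and 131 in knockout. HBQ1-201 had 1 summit in wild type, at base 257 with the ac4C antibody, and 2 in knockout, at bases 125 and 414.

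By the median, member peaks spanned more of the transcript in the wild type lists than in the knockout lists. Member regions covered a median of 97.5% of the transcript with the ac4C antibody in wild type and 97.7% with IgG, and in knockout 65.7% and 65.5%. Unlike the protein-coding background given next, member regions include those on retained-intron transcripts and, in knockout alone, HBZ-202. Over all protein-coding transcripts of 400 to 800 bases, the range that holds the main globin transcripts, the medians were 66.2% and 66.6% in wild type and 50.7% and 48.1% in knockout. On HBZ-201 the ac4C region began at base 32 in wild type and at base 222 in knockout, and the IgG regions began at bases 32 and 224. Each genotype has 1 merged list per antibody, so no difference between them was tested.

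The authors' fold over input, a value of each peak within its own list, was high on the globins. HBZ-201 had a fold of 280 with the ac4C antibody in wild type, the rank 52 of 45290 regions, and of 289 with IgG, the rank 46 of 45426. HBA1-201 had 234 with the ac4C antibody and 226 with IgG, and HBA2-201 had 221 and 213. The part of shared reads in these close values was not tested. HBQ1-201 was lower, at 50.0 and 48.6. In knockout HBA1-201 had 64.5 with the ac4C antibody (rank 489 of 80709) and 53.5 with IgG, and HBA2-201 had 59.5 and 57.9. HBZ-201 had 41.7 and 27.3, and HBQ1-201 had 20.6 and 10.1. On HBA1-202, HBA1-203, HBA1-204, HBA2-202, HBA2-203 and HBA2-204 the knockout IgG fold exceeded the ac4C fold, for example 18.6 against 12.8 on HBA1-202. The lists differ in length and each was called by itself, so folds and ranks of different lists are given side by side and show no change.

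**Figure D4:**
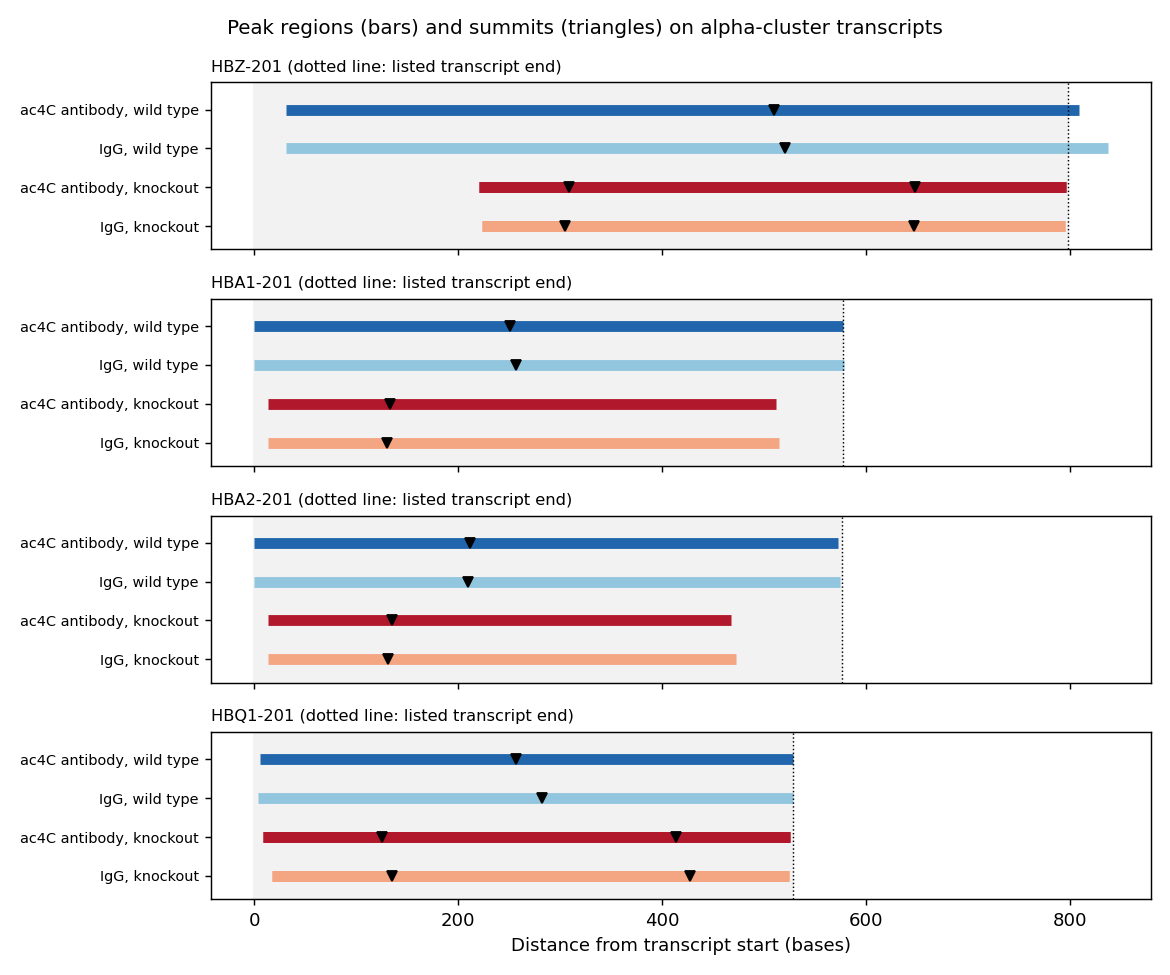
Peak regions (bars) and summits (triangles) of the 4 lists along the main transcript of each gene, with the distance from the transcript start in bases on the horizontal axis and the listed transcript end dotted. Within a genotype the ac4C and IgG bars nearly coincide, and the HBZ-201 bars begin near base 32 in wild type and near base 222 in knockout.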

How the data were processed

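RNA-seq and Ribo-seq values are whole-number counts per gene, which the authors deposited after removing duplicate reads, per the file headers. The submitters' processing notes name STAR and featureCounts among the tools and GRCh38.p13 as the build. The peak lists give, as the authors deposited them in narrowPeak form, a fold enrichment over input (a ratio) and a -log10 q for each peak on transcript sequences, with replicates merged, per the deposited peak names; the notes also name Bowtie2 and MACS2. Summit positions were computed from the deposited offset from the peak's start, counting from 1. Strand and multi-mapping settings are not given in the sources used here.

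Tests used the quasi-likelihood method of edgeR 4.0.16 (R 4.3.3; TMM, filterByExpr, Benjamini-Hochberg adjustment over all tested genes, threshold 0.05). CPM are scaled by TMM over all 4 libraries of an assay. The common coefficient of variation from edgeR was 9.12% in RNA, 12.0% in footprints and 7.69% in the efficiency model. This variation may be technical, since separate cultures are not stated. The efficiency model had 3 residual degrees of freedom and scaled each assay apart. Identifiers for Y copies of pseudoautosomal genes (44 in RNA, 18 in footprints) did not enter. The tests were run on simulated data with known changes and 1 dispersion for all genes and both assays, unlike the data. Of log2 changes of 1 they recovered 73.5% in RNA, 59.6% in footprints and 34.3% in efficiency. Of log2 changes of 2 they recovered 94.7%, 99% and 81.8%, respectively. Named besides the members were, per list, up to 4 called genes with the lowest adjusted p, and 6 genes fixed by name. NAT10 and the 5 genes most like HBZ and the alpha pair were also named. LUC7L, HBM, HBZP1, PRR35, GP1BB and some other cell type markers were named outside this rule. The members and lists were chosen with earlier results of these data known. Gene order came from RefSeq GRCh38.p14. Alternatives were RLE and total-count scaling, no filter, DESeq2 1.42.0, the alpha pair summed, libraries kept apart, a replicate block, each library left out, a stricter q and a stricter overlap.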

Additional observations from a re-analysis of the deposited data

How the results depend on the processing

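HBZ, HBA1 and HBA2 in RNA and HBZ in footprints kept direction and call under every alternative that gave a test. Over all alternatives, including leaving out a wild type RNA library, which gave RNA values with no test, log2 fold changes were 2.00 to 2.13, 1.13 to 1.23, 2.04 to 2.21 and 1.5 to 1.80. HBQ1 in RNA ran from 0.22 to 0.41 and was called without a filter (0.39), with knockout libraries kept apart (0.31) and with these and a replicate block (0.31); the cause was not tested. HBQ1 footprints ran from -0.02 to 0.14 with 1 library left out, reversing without knockout replicate 2 (-0.02). HBZ efficiency was called under none of 11 alternatives, and HBQ1 under none that gave an adjusted p (DESeq2 gave none).

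Genes called in RNA (2271) were 3513 without a filter, 1042 with DESeq2, 5476 with knockout libraries apart and 4983 with these and the replicate block, and 2077 to 2116 without 1 knockout library. In footprints (475) they were 889, 178 and, with the replicate block, 1594, and 264 to 716 with 1 library left out. In efficiency (0) they were 62 without a filter, 24 with DESeq2, 3 with knockout RNA libraries apart, 263 with these and the replicate block, and 0 to 18 with 1 library left out. In the sources used here, only the replicate number links same-numbered libraries of the 2 genotypes. Their deviations correlated at -0.0138 in RNA, and at 0.231 over 8887 genes in footprints. Same-numbered footprint libraries thus varied together in part, and whether they shared a batch was not tested. The block changed no call of HBZ, HBA1 or HBA2. A -log10 q of at least 10, or a reciprocal overlap of 50%, left every count of member peaks as it was. HBA1 and HBA2 had too few footprint counts to be tested.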

Other observations

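On HBZ-201 the wild type peak regions ran past the listed transcript length of 798 bases, by 11 bases with the ac4C antibody and by 39 bases with IgG. Such regions were 2 of 10 on the 4 genes with the ac4C antibody and 4 of 10 with IgG in wild type, and 0 of 11 in each knockout list. Over whole lists they were 0.349% and 0.458% of regions in wild type and 3.85% and 3.90% in knockout.

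The transcripts with retained introns also carried peaks in all lists. On HBA1-203 the wild type fold over input was 149 with the ac4C antibody and 147 with IgG, and on HBA1-204 it was 21.8 and 19.4. HBZ-202, which had a peak in knockout alone, had folds of 5.94 and 6.97 there, near the list medians of 4.90 and 5.27.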
